A study of Homo sapiens with 6 samples.

Results

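The tetraspanin genes were examined in cells labelled Hep3B, a human hepatocellular carcinoma cell line, that had received either si-SNHG17-1 or the control si-NC by transfection. Both are siRNAs, short double-stranded RNAs that lead to cleavage of a matching transcript, and si-SNHG17-1 is named for the long noncoding RNA SNHG17. Members were all rows of the deposited gene table named TSPAN followed by a number, together with CD9, CD37, CD53, CD63, CD81, CD82, CD151, UPK1A, UPK1B, PRPH2 and ROM1. This gave 33 genes of 58243 in the table, and 26 of them had enough counts to be tested among 18679 genes. Each group had 3 RNA sequencing libraries from total RNA. The labels give 1 siRNA against SNHG17. They leave unsaid whether the replicates came from separate cultures, and p-values here therefore measure the spread between libraries, which may be technical only.

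Tetraspanins are small membrane proteins that cross the membrane with a bundle of helices and carry a large extracellular loop with conserved cysteines. They bind one another and partner proteins such as laminin-binding integrins, immunoglobulin superfamily proteins and the protease ADAM10, and so gather receptors into patches of membrane. Some, such as CD63, CD9 and CD81, are abundant on extracellular vesicles. In hepatocytes CD81 is known as an entry receptor of hepatitis C virus.

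Total counts ranged from 30207055 to 42271168 per library. SNHG17 itself had 843, 953 and 948 counts in the control libraries and 307, 338 and 254 after si-SNHG17-1, a log2 fold change of −1.51 ± 0.12 (SE, adjusted p = 0.00101 by the quasi-likelihood test of edgeR with Benjamini-Hochberg adjustment). Of 10 hepatocyte markers, 9 were under 1 CPM (counts scaled to a common library size, with the TMM method of edgeR) in every library. AFP did not exceed 0.214 CPM, and ALB ranged from 0.159 to 0.811 CPM. Of 12 leukocyte markers, 11 were under 1 CPM in every library. Summed levels of 12 fibroblast and endothelial markers were 187 to 203 CPM in si-NC and 252 to 263 CPM in si-SNHG17-1, with 3 of 9 tested members higher. COL1A1, COL3A1 and LUM made up most of that sum. PECAM1 and PDGFRB had every si-SNHG17-1 library below every si-NC library (log2 fold changes −1.20 and −0.28, not called), and the other tested ones had positive log2 fold changes. The fibroblast genes COL1A2 and PDGFRA and the endothelial gene KDR were at 0 in every library. Summed levels of 8 keratin and other epithelial markers were 2464 to 2861 CPM in si-NC and 1801 to 1870 CPM in si-SNHG17-1, with 2 of 6 tested members lower. KRT7, with means of 1721 and 1100 CPM, made up most of that sum. It was called together with KRT18, while KRT8, at 585 and 515 CPM, was not called. These marker shifts run beside every comparison below, and their part in the results was not tested.

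After si-SNHG17-1, 1 tetraspanin gene was lower and 2 were higher of the 26 tested, at an adjusted p under 0.05. TSPAN6 fell to 11.6% of the control level, while CD63 rose 1.32-fold and TSPAN13 rose 1.54-fold. The share called lower was 3.85% of tested members, against 5.21% of all tested genes, and the share called higher was 7.69%, against 5.25%. These shares rest on 1 and 2 genes. The median log2 fold change of the 26 tested members was 0.16, beside −0.0017 for all tested genes, and the median absolute log2 fold change was 0.31, beside 0.28. Of the 23 members that were not called, 14 had a positive and 9 a negative log2 fold change. At an unadjusted p under 0.05 there were 6 members, which were the 3 called genes with TSPAN9, TSPAN10 and TSPAN12. In these bulk libraries, fewer cells of a type and less RNA per cell cannot be told apart.

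**Figure D1:**
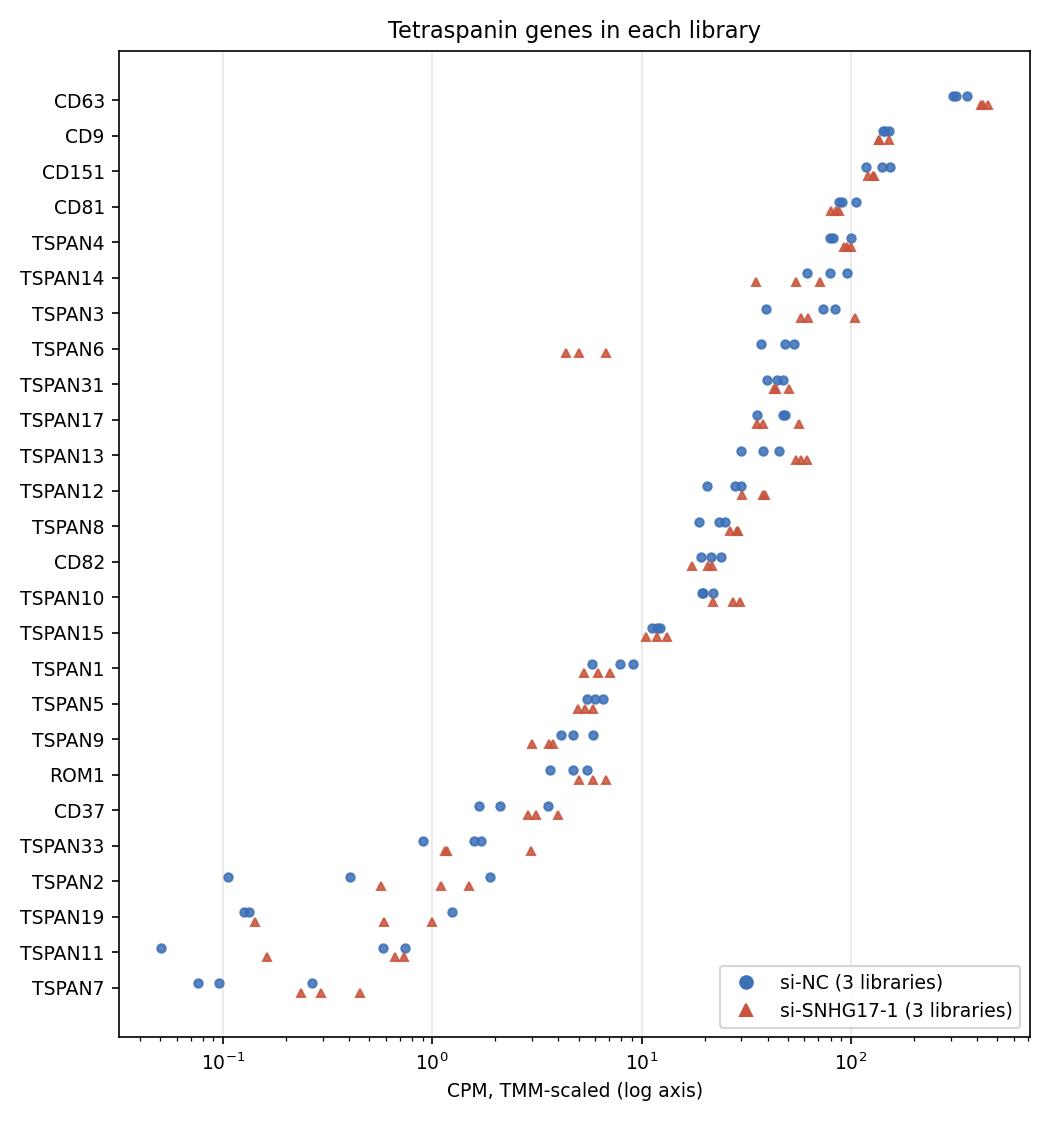
TMM-scaled CPM of the 26 tested tetraspanin genes on a logarithmic axis, with 1 point per library (blue circles, 3 si-NC; red triangles, 3 si-SNHG17-1) and genes ordered by their si-NC mean. TSPAN6 is the gene whose groups lie farthest apart, at 37.1 to 53.6 CPM against 4.36 to 6.78 CPM, and CD63 is the most abundant in both groups.

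TSPAN6, which is known to bind the vesicle adaptor syntenin and to restrain signalling through the antiviral adaptor MAVS, had 1397, 2239 and 1922 counts in the control libraries and 259, 212 and 134 after si-SNHG17-1. As CPM the control libraries were at 37.1, 53.6 and 48.5 and the si-SNHG17-1 libraries at 6.78, 5.03 and 4.36. The groups did not overlap, and the lowest si-NC library was still several times above the highest si-SNHG17-1 library. The mean went from 46.4 ± 8.47 to 5.39 ± 1.25 CPM (SD, n = 3 each), with a log2 fold change of −3.10 ± 0.22 (SE, adjusted p = 0.000615 by edgeR). Among the 974 genes called lower, 12 had a more negative log2 fold change. An exact two-sided permutation test of TSPAN6 alone gave p = 0.1, and with 3 libraries a group no smaller value is possible. When each library was left out in turn, the edgeR call held all 6 times, at log2 fold changes of −3.29 to −2.96. No exon of another annotated gene overlaps TSPAN6 (ENSG00000000003.14, GRCh38, chromosome X, 100627109 to 100639991, minus strand). In si-NC it made up 3.11% to 4.35% of all tetraspanin CPM, and in si-SNHG17-1 0.336% to 0.526%.

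The 3′ UTR of TSPAN6 was searched for TTCAATCA, a word that an earlier look at genes lower in these same libraries had picked out, so that its presence is no independent evidence. The search covered the transcript strand only, in the longest 3′ UTR of each coding gene in GENCODE release 29. It also covered the 7-base forms TTCAATC and TCAATCA and the core TCAATC, all of which lie within the 8-base word. TSPAN6 held the 8-base word 3 times, at bases 137, 182 and 214 after the stop codon of a 3′ UTR of 2917 bases. The sites are shown because the other tetraspanin 3′ UTRs hold at most 1 copy. They are written 5′ to 3′ on the transcript strand with the word in capitals, from GENCODE release 29 transcripts on GRCh38, at chrX:100629876-100629895, chrX:100629831-100629850 and chrX:100629799-100629818 on the minus strand.
TSPAN6 first site: ggttgaTTCAATCAagatgt
TSPAN6 second site: ggctgaTTCAATCAagatcc
TSPAN6 last site: ggctgaTTCAATCAagatgt

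The 3 TSPAN6 sites began 45 and 32 bases apart, lay within 85 bases and shared a run of 15 bases, tgaTTCAATCAagat, that is longer than the word searched. Both coding transcripts of TSPAN6 with an annotated stop codon carried all 3 copies in their last exon, with 3′ UTRs of 1356 and 2917 bases. Among the 33 tetraspanin genes, 5 held the 6-base core in the 3′ UTR and 2 held the 8-base word. Of all 19145 genes searched, 18.6% held the core and 2.71% the 8-base word. Among the tested genes with a 3′ UTR of 2000 to 4000 bases, as TSPAN6 has, these shares were 29.4% and 4.60%. The siRNA sequence is not given in the sources used here, and a match is a description of these letters only.

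TSPAN9, a tetraspanin of platelets, held the 8-base word once and a 7-base form once. The TSPAN9 sites are shown beside those of TSPAN6 because no other member held the 8-base word, and they lie on GRCh38 at chr12:3285727-3285746 and chr12:3283782-3283800 on the plus strand.
TSPAN9 8-base site: agtcagTTCAATCAggtctg
TSPAN9 7-base site: ccagtcTCAATCAggacag

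TSPAN9 was at 5.84, 4.72 and 4.14 CPM in si-NC and at 2.98, 3.77 and 3.61 CPM in si-SNHG17-1. All 3 si-SNHG17-1 libraries were below the si-NC libraries, but the difference did not pass the adjustment (log2 fold change −0.50 ± 0.21 SE, adjusted p = 0.172 by edgeR). TSPAN3 held a 7-base form far from its stop codon, and its groups overlapped. It was at 39.4, 84.0 and 73.8 CPM in si-NC and at 62.3, 57.5 and 104 CPM in si-SNHG17-1 (0.18 ± 0.32 SE on the log2 scale). CD53 and TSPAN18, which also held a 7-base form, had too few counts to be tested.

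**Figure D2:**
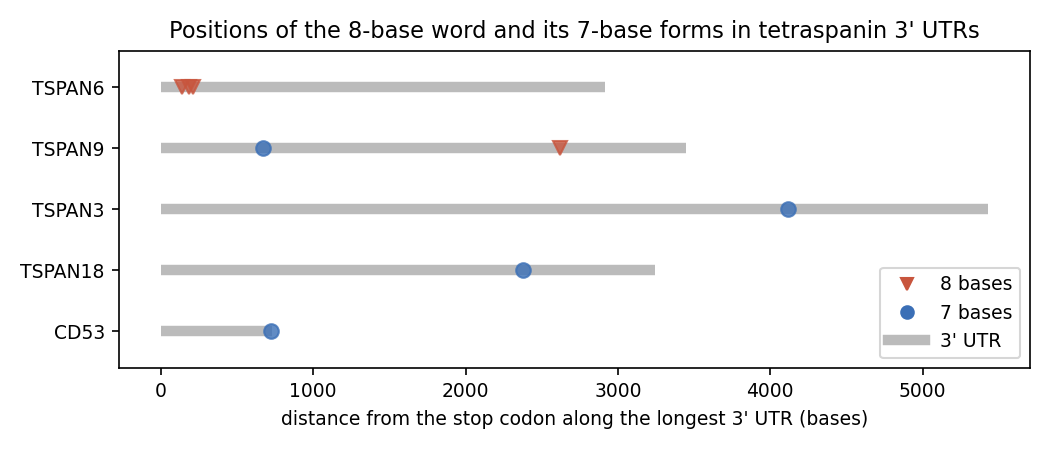
Positions of the 8-base word and its 7-base forms along the longest annotated 3′ UTR of the 5 tetraspanin genes that hold at least 1 of them, as distance in bases from the stop codon (grey bars, the 3′ UTR; red triangles, 8-base word; blue circles, 7-base forms). The 3 TSPAN6 copies lie close together at bases 137 to 214, whereas the 8-base copy of TSPAN9 lies at base 2617.

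CD63 (ENSG00000135404.11, GRCh38, chromosome 12, 55725323 to 55729707, minus strand), a tetraspanin of late endosomes and vesicles, was the most abundant member and rose. It was at 308, 318 and 359 CPM in si-NC and at 429, 454 and 421 CPM in si-SNHG17-1. Every si-SNHG17-1 library was above every si-NC library. The mean went from 328 ± 26.7 to 435 ± 17.6 CPM (SD, n = 3 each), with a log2 fold change of 0.40 ± 0.08 (SE, adjusted p = 0.0194 by edgeR). CD63 made up 25.8% to 27.5% of all tetraspanin CPM in si-NC and 32.4% to 33.5% in si-SNHG17-1. When libraries were left out singly, the call was lost 4 times of 6, at adjusted p of 0.0596 without si-NC replicate 2 and 0.0789, 0.0793 and 0.0570 without si-SNHG17-1 replicates 1, 2 and 3. The log2 fold change stayed between 0.36 and 0.47. An antisense gene, AC009779.2, shares 9.0% of the CD63 exon bases and went from 6.32 to 9.73 CPM (log2 fold change 0.62, adjusted p = 0.0972 by edgeR). Its reads and those of CD63 may be mixed, because the strand setting of the counting is not given in the sources used here.

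TSPAN13 (ENSG00000106537.7, GRCh38, chromosome 7, 16753535 to 16784536, plus strand), a less studied member of the family, was at 29.96, 38.2 and 45.2 CPM in si-NC and at 57.9, 54.7 and 62.0 CPM in si-SNHG17-1. The groups did not overlap, although the si-NC libraries spread widely. The mean went from 37.8 ± 7.62 to 58.2 ± 3.64 CPM (SD, n = 3 each), with a log2 fold change of 0.62 ± 0.15 (SE, adjusted p = 0.0439 by edgeR). When libraries were left out singly, TSPAN13 lost the call 5 times of 6 and kept it only without si-NC replicate 3. The adjusted p was 0.0579 and 0.0952 without si-NC replicates 1 and 2, and 0.129, 0.103 and 0.143 without si-SNHG17-1 replicates 1, 2 and 3. It was also lost without the filter on low counts (adjusted p = 0.0634). Neither CD63 nor TSPAN13 held the 6-base core in its 3′ UTR. Most genes lack it, since 5 of the 33 members and 18.6% of all genes searched held it.

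**Figure D3:**
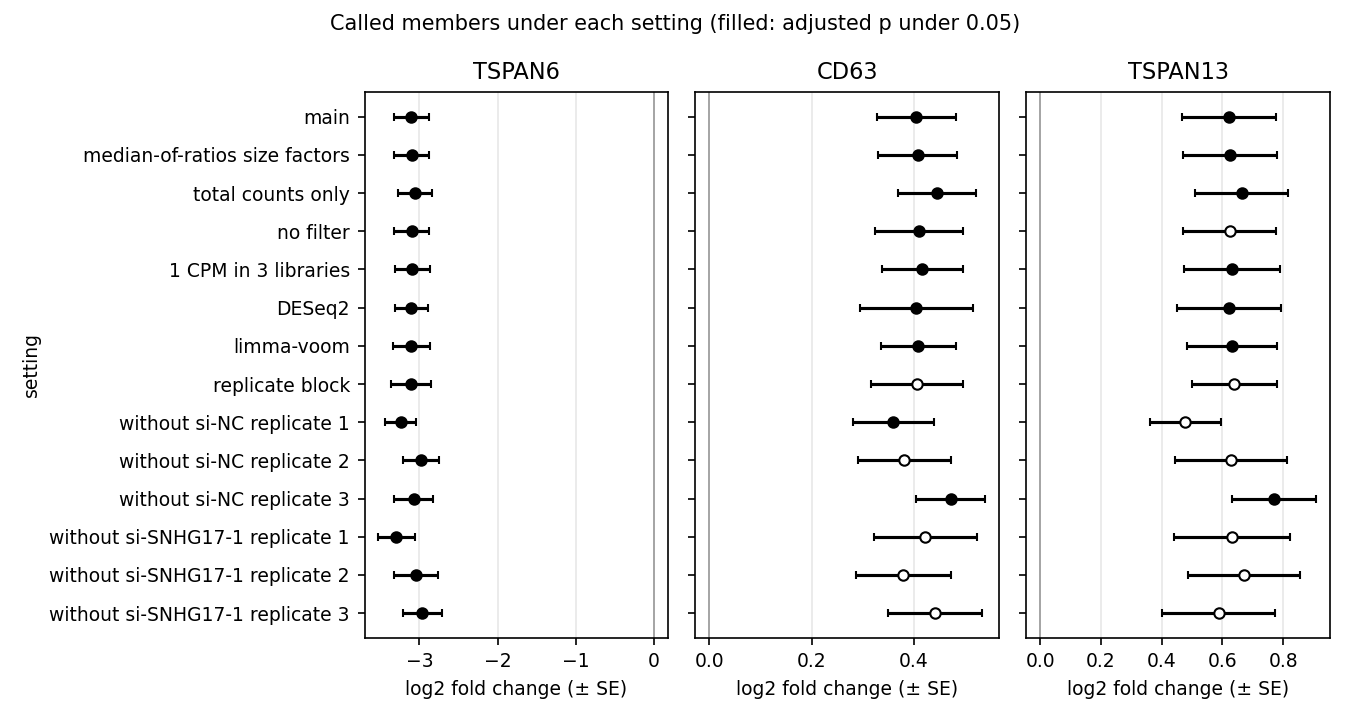
log2 fold change ± SE of TSPAN6, CD63 and TSPAN13 (panels with separate horizontal axes) under each of 14 settings on the vertical axis, with filled points where the adjusted p is under 0.05. TSPAN6 stays between −3.29 and −2.96 and filled throughout, whereas CD63 and TSPAN13 stay above 0 but are open in 5 and 7 settings.

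The other tetraspanins known for integrin binding and for vesicles did not pass the test. CD9, a partner of the immunoglobulin superfamily protein PTGFRN, was at 142, 146 and 151 CPM in si-NC and at 152, 136 and 136 CPM in si-SNHG17-1 (−0.05 ± 0.08 SE on the log2 scale, adjusted p = 0.713 by edgeR). CD151, which binds laminin receptors of the integrin family, was at 153, 118 and 141 CPM in si-NC and at 130, 127 and 120 CPM in si-SNHG17-1 (−0.13 ± 0.11 SE). The ranges of CD9 and of CD151 overlapped between groups.

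CD81 was at 90.4, 106 and 88.2 CPM in si-NC and at 88.1, 85.3 and 80.6 CPM in si-SNHG17-1. Its groups did not overlap, but by a narrow margin, and the log2 fold change of −0.16 ± 0.09 (SE) was not called (adjusted p = 0.325 by edgeR). CD82, known as a suppressor of metastasis, was at 24.0, 19.2 and 21.5 CPM in si-NC and at 17.4, 20.7 and 21.8 CPM in si-SNHG17-1 (−0.11 ± 0.14 SE), with overlapping groups. TSPAN4, which is enriched on migrasomes, the vesicles left behind by moving cells, went from 87.7 ± 11.2 to 96.3 ± 3.79 CPM (0.14 ± 0.10 SE on the log2 scale).

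TSPAN8, a tetraspanin of gastrointestinal carcinomas, was at 23.4, 18.8 and 25.1 CPM in si-NC and at 28.97, 26.5 and 28.7 CPM in si-SNHG17-1. All si-SNHG17-1 libraries were the higher ones, and the difference was not called (log2 fold change 0.32 ± 0.14 SE, adjusted p = 0.189 by edgeR). TSPAN1, an epithelial member, had means of 7.61 and 6.19 CPM in si-NC and si-SNHG17-1, with overlapping groups. Of the 8 integrin and vesicle tetraspanins, CD63 alone was called.

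Across all 26 tested members, 4 had every si-SNHG17-1 library above every si-NC library (CD63, TSPAN13, TSPAN8 and TSPAN12) and 3 had every one below (TSPAN6, CD81 and TSPAN9). These are 15.4% and 11.5% of tested members, beside 16.4% and 17.3% of all tested genes. TSPAN12, a co-receptor of the Norrin and Frizzled-4 pathway, was at 20.5, 27.9 and 29.9 CPM in si-NC and at 39.1, 38.0 and 30.2 CPM in si-SNHG17-1 (0.45 ± 0.17 SE on the log2 scale, adjusted p = 0.142 by edgeR). Its groups were separated by a narrow gap. A summed level over all 33 members was 1191, 1232 and 1306 CPM in si-NC and 1288, 1358 and 1299 CPM in si-SNHG17-1, so the ranges overlapped.

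**Figure D4:**
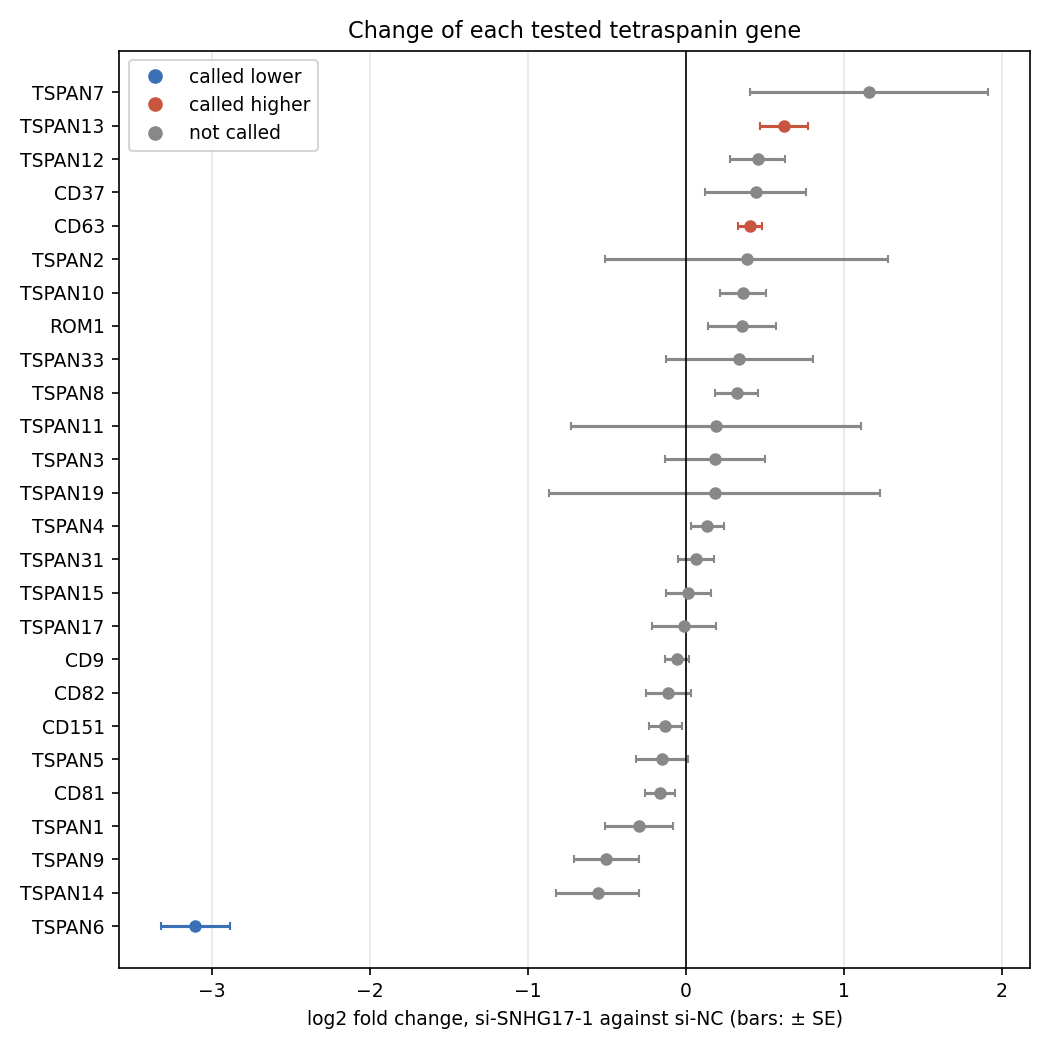
log2 fold change of si-SNHG17-1 against si-NC for the 26 tested tetraspanin genes, with bars of ± 1 SE and genes ordered by change (blue, called lower; red, called higher; grey, not called). TSPAN6 at −3.10 stands apart from the next lowest gene, TSPAN14 at −0.56, and the widest bars belong to genes with few counts.

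The TspanC8 group is named for the number of cysteines in the large extracellular loop, and its proteins escort ADAM10 to the cell surface. All 6 genes were tested and none was called, with a median log2 fold change of 0.0020. Members of this group have been reported to steer ADAM10 towards different substrates. TSPAN14 was the most abundant of the group in CPM, at 96.2, 79.5 and 61.5 CPM in si-NC and at 35.2, 71.2 and 54.6 CPM in si-SNHG17-1. The spread within each group was wide and the groups overlapped, with a log2 fold change of −0.56 ± 0.26 (SE, adjusted p = 0.222 by edgeR).

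TSPAN10 did not pass the test and had a positive log2 fold change, at 19.7, 19.5 and 22.0 CPM in si-NC and 27.3, 29.6 and 21.8 CPM in si-SNHG17-1 (0.36 ± 0.15 SE on the log2 scale, adjusted p = 0.158 by edgeR). TSPAN17 was at 47.2, 35.7 and 48.5 CPM in si-NC and at 35.8, 56.8 and 37.9 CPM in si-SNHG17-1 (−0.01 ± 0.20 SE). TSPAN15, which promotes cleavage of N-cadherin by ADAM10, had means of 11.8 and 11.9 CPM. TSPAN5 had means of 5.99 and 5.39 CPM, and TSPAN33 had means of 1.40 and 1.76 CPM. ADAM10 itself was at 82.2 ± 5.22 CPM in si-NC and 93.1 ± 8.66 CPM in si-SNHG17-1 (SD, n = 3 each), with a log2 fold change of 0.18 ± 0.10 (SE, adjusted p = 0.284 by edgeR).

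Of the remaining tested members, TSPAN31 went from 43.9 ± 3.94 to 45.9 ± 4.30 CPM (0.06 ± 0.11 SE on the log2 scale). Its exons share 25.4% of their bases with CDK4 on the opposite strand, which was not called either (log2 fold change 0.28). ROM1, a photoreceptor disc protein, was at 4.70, 3.64 and 5.50 CPM in si-NC and 6.78, 5.86 and 5.01 CPM in si-SNHG17-1 (0.35 ± 0.21 SE on the log2 scale). The ROM1 ranges overlapped, and 24.8% of its exon bases are shared with EML3 on the opposite strand (log2 fold change −0.42, adjusted p = 0.115 by edgeR). CD37, a leukocyte tetraspanin, was at 1.67, 2.11 and 3.58 CPM in si-NC and 3.14, 3.99 and 2.87 CPM in si-SNHG17-1 (0.44 ± 0.32 SE). The leukocyte gene PTPRC did not exceed 0.391 CPM, while the 12 leukocyte markers summed to 5.94 to 6.91 CPM in si-NC and 7.94 to 10.2 CPM in si-SNHG17-1, with none of 3 tested called. CSF1R made up most of that sum, at 4.77 and 7.60 CPM on average, while CD3E and CD14 had negative log2 fold changes (−1.09 and −1.35). In addition, 7.7% of the CD37 exon bases are shared with TEAD2.

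The other 4 tested members had low counts and wide errors. TSPAN2 had 4, 79 and 16 counts in the controls and 42, 24 and 46 after si-SNHG17-1. TSPAN19 had 5, 52 and 5 counts in the controls and 38, 6 and 18 after si-SNHG17-1, and TSPAN11 had 22, 31 and 2 against 28, 28 and 5. Standard errors of these 3 were 0.90, 1.05 and 0.92 on the log2 scale, so a change of 2-fold could not have been told from the replicate spread. TSPAN7, a tetraspanin of neurons, had 10, 4 and 3 counts in the controls and 9, 19 and 9 after si-SNHG17-1 (log2 fold change 1.16 ± 0.75 SE). Its exons share 21.7% of their bases with AF241726.2 on the same strand. That gene had 0, 4 and 10 counts in the controls and 1, 0 and 0 after si-SNHG17-1.

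The 7 members that were not tested never exceeded 17 counts in a library, or 0.429 CPM. A floor of 3 counts corresponded to 0.0712 to 0.0977 CPM, for counting error only. The urothelial plaque genes had 5, 12 and 0 counts (UPK1A) and 0 in all 3 libraries (UPK1B) in si-NC, and 5, 0 and 4 and 12, 0 and 0 in si-SNHG17-1. The leukocyte genes TSPAN32 and CD53 were at 0, 3 and 17 and at 0, 0 and 9 counts in si-NC and at 0 in all si-SNHG17-1 libraries. The photoreceptor gene PRPH2, TSPAN16 and TSPAN18 were at 0 in si-NC and at no more than 6 counts in si-SNHG17-1. No change of these genes was detectable at this depth. Summed levels of 8 urothelial markers were 33.1 to 37.1 CPM in si-NC and 59.6 to 68.6 CPM in si-SNHG17-1. PPARG, the 1 of 4 tested that was called higher, made up most of that sum, with means of 31.1 and 60.6 CPM. Of the other tested ones, UPK3B and UPK2 had negative log2 fold changes (−0.52 and −0.09) and GATA3 a positive one (1.15). Summed levels of 9 photoreceptor markers were 1.79 to 2.95 CPM in si-NC and 2.59 to 3.85 CPM in si-SNHG17-1. NRL, the only 1 tested, made up most of that sum, with means of 1.77 and 2.85 CPM. Every si-SNHG17-1 library of NRL was above every si-NC library, but it was not called (adjusted p = 0.194 by edgeR). The part of these levels in the counts of UPK1A, UPK1B, PRPH2 and ROM1 was not tested.

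Levels were compared between genes as CPM per kilobase of annotated exon in si-NC. CD63 was highest at 125 ± 10.1 (SD, n = 3), and its si-NC libraries did not overlap those of CD9, which followed at 35.2 ± 1.16. CD9 and CD151 (34.9 ± 4.54) did not differ beyond their spread. Next came TSPAN13 at 17.0 ± 3.43, TSPAN4 at 15.01 ± 1.91 and CD81 at 12.8 ± 1.28, whose neighbouring ranges overlapped. TSPAN6 was seventh in this order at 10.2 ± 1.87 and did not overlap CD81. From TSPAN6 through TSPAN8, TSPAN17, TSPAN31, TSPAN12 and TSPAN3 to CD82 at 5.32 ± 0.587, each gene overlapped the next in order. TSPAN14 stood at 4.42 ± 0.971 on this scale, with annotated exons that add up to 17888 bases and a longest 3′ UTR of 15147 bases. Chromosomes 11 and 12 hold 7 members each. CD151 (832843 to 839831) and TSPAN4 (842808 to 867116) lie near each other on chromosome 11 (GRCh38), and their log2 fold changes of −0.13 and 0.14 were both uncalled. In CPM, 15 of the 33 members were at 10 or more in every library and 9 were under 1 in every library.

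Partners of tetraspanins and other related genes were described from 6 lists with 123 tested genes, of which 11 rose and 9 fell. That is 8.94% and 7.32%, beside 5.25% and 5.21% of all tested genes, with a median log2 fold change of 0.01. Not all of these are binding partners, since the lists include palmitoylation enzymes, RIG-I and MAVS signalling and TM4SF genes. Among the 26 tested partners in the tetraspanin web, 4 rose and 2 fell, with a median of −0.08. PTGFRN, the partner of CD9 and CD81, was at 129, 115 and 125 CPM in si-NC and at 185, 181 and 177 CPM in si-SNHG17-1 (0.55 ± 0.07 SE on the log2 scale, adjusted p = 0.0055 by edgeR). ITGB4, the integrin chain of hemidesmosomes and a partner of CD151, fell from 87.6 ± 13.5 to 47.2 ± 5.62 CPM (−0.89 ± 0.14 SE). The groups of both genes did not overlap. ITGA3, the laminin receptor chain that CD151 binds most tightly, was at 417 ± 58.6 and 296 ± 44.7 CPM and was not called (adjusted p = 0.0610 by edgeR). ITGB1 went from 785 to 879 CPM (log2 fold change 0.16), also without a call. CLDN1, CD47 and ITGA7 rose by 0.36, 0.46 and 1.20 on the log2 scale and PRKCA fell by 0.38. ITGA7 and ITGA3 were named after their values were seen, as were ITGB1 and ADAM10.

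In the list of genes for extracellular vesicles and the syntenin route, 3 of 33 rose and 2 fell, with a median of 0.11. SDC4, a syndecan whose tail binds syntenin, was at 124, 117 and 117 CPM in si-NC and at 212, 222 and 216 CPM in si-SNHG17-1 (0.86 ± 0.07 SE on the log2 scale, adjusted p = 0.00100 by edgeR). LAMP2, a lysosomal membrane protein, fell from 180 ± 5.23 to 115 ± 9.52 CPM (−0.64 ± 0.08 SE). SDCBP, which encodes syntenin, was at 117, 229 and 162 CPM in si-NC and at 187, 153 and 227 CPM in si-SNHG17-1, so that its groups overlapped, and it was named after its values were seen. SDC3 and CHMP4B rose by 0.45 and 0.32, and VPS25 fell by 0.37 on the log2 scale.

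Of 18 genes of RIG-I and MAVS signalling, in which TSPAN6 is known to act, none rose and 2 fell, with a median of −0.21. Among all tested genes, 5.25% were called higher and 5.21% lower. ISG15, an interferon-induced ubiquitin-like protein, fell from 794 ± 45.8 to 470 ± 27.6 CPM (−0.76 ± 0.07 SE on the log2 scale, adjusted p = 0.00198 by edgeR). DDX58, which encodes RIG-I, fell by 0.69 on the log2 scale. MAVS was at 162, 148 and 144 CPM in si-NC and at 76.1, 139 and 115 CPM in si-SNHG17-1. All si-SNHG17-1 libraries of MAVS were below the si-NC libraries, but it was not called (adjusted p = 0.191 by edgeR) and was named after its values were seen. Other uncalled genes of this list also had groups that did not overlap, in both directions. Such separation was common, at 16.4% of all tested genes for higher and 17.3% for lower. TRAF3 and TANK were higher (log2 fold changes 0.71 and 0.56), and IKBKE and TRIM25 were lower (−0.35 and −0.28). These were likewise named after their values were seen.

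Tetraspanins are palmitoylated on cysteines near the membrane. Of 27 tested enzymes of protein palmitoylation, 2 rose and 2 fell, with a median of 0.02. ZDHHC16 rose from 21.8 ± 1.25 to 49.9 ± 4.00 CPM (1.19 ± 0.11 SE on the log2 scale) and ZDHHC18 from 24.9 ± 4.22 to 45.2 ± 1.25 CPM (0.86 ± 0.14 SE), while ZDHHC3 and the depalmitoylating enzyme LYPLA2 fell by 0.43 and 0.61 on the log2 scale. Of 17 tested genes in the list of ADAM10 and its substrates, L1CAM rose by 0.33 and AXL fell by 0.34, with a median of 0.01. Of the TM4SF genes, which span the membrane as often as tetraspanins but belong to another family, 2 were tested. TM4SF1 rose from 250, 321 and 327 CPM to 764, 730 and 729 CPM (log2 fold change 1.31 ± 0.11 SE, adjusted p = 0.00119 by edgeR).

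With a library left out in turn, 8 of the 20 called genes of the 6 lists kept the edgeR call each time. These were PTGFRN, ITGB4, SDC4, LAMP2, ZDHHC16, ZDHHC18, ISG15 and TM4SF1. The other 12 each lost it without si-SNHG17-1 replicate 1, 2 or 3, with adjusted p up to 0.161 for CLDN1. CLDN1, CHMP4B and SDC3 also lost it without each si-NC replicate. CD47 and LYPLA2 lost it without si-NC replicates 1 or 3, and ITGA7, L1CAM, AXL and VPS25 without si-NC replicates 2 or 3.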

How the data were processed

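RNA sequencing of 6 libraries was deposited by the authors as 1 table of raw gene counts without normalisation. Reads were aligned with HISAT2 to GRCh38, per the submitters' processing notes. The counting program, annotation release and strand setting were not given in the sources used here. Groups and replicate numbers came from the titles. Counts were tested with edgeR 4.0.16 in R 4.3.3 (filterByExpr with minimum count 10 and minimum total 15, TMM scaling, quasi-likelihood F test, replicate number not in the model). Benjamini-Hochberg adjustment covered 18679 genes, at a threshold of 0.05. Standard errors were derived from the F statistic (the size of the log2 fold change over √F). The procedure was tested on simulated data.

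Alternatives were scaling by median-of-ratios or by total counts, dropping the filter, 1 CPM in 3 libraries, DESeq2 1.42.0, limma 3.58.1 voom, a replicate block and each library left out. Exon lengths, overlaps and 3′ UTRs came from GENCODE release 29, in which 29 of 33 members had the same version and 32 identical coordinates. The members and gene lists were chosen with earlier results of these data known. Values in every library are given for called members, for CD9, CD63, CD81, CD82 and CD151, and for the 3 members highest per length, and other members were added. Each list of partners and related genes gives up to 3 called genes per direction with the smallest adjusted p. Depth was 30207055 to 42271168 counts per library, which sets the floor given with the results.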

Additional observations from a re-analysis of the deposited data

How the results depend on the processing

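TSPAN6 and SNHG17 kept their direction and call under every alternative run, with TSPAN6 between −3.29 and −2.96 and SNHG17 between −1.53 and −1.48 on the log2 scale when a library was left out. Without the filter on low counts, 627 of all genes were called lower, 1 tetraspanin gene higher and 12 partner or related genes in either direction. With a library left out, the ranges were 313 to 694 of all genes higher and 264 to 705 lower. They were 0 to 2 for tetraspanin genes called higher and 8 to 17 for partner or related genes. The tetraspanin genes called lower remained 1 throughout. With the replicate number as a block there were 273 higher and 259 lower genes, 0 tetraspanin genes higher and 7 partner or related genes. In that fit the edgeR adjusted p was 0.0797 for CD63 and 0.0782 for TSPAN13. Same-numbered libraries did not deviate together (correlations of −0.0172, −0.0367 and −0.0153, beside −0.02 to 0.0393 for differently numbered ones). This gives no sign of a pairing but cannot settle it, and the labels do not state one. Members that were not called changed sign in some fits. TSPAN17 was at 0.030 with total counts and at 0.0024 with the filter of 1 CPM in 3 libraries, and at −0.24 to 0.12 with a library left out. The ranges with a library left out were −0.0076 to 0.13 for TSPAN31, −0.12 to 0.40 for TSPAN3, −0.061 to 0.11 for TSPAN15, −0.26 to 0.58 for TSPAN33, −0.13 to 2.02 for TSPAN2, −0.49 to 2.12 for TSPAN19 and −0.34 to 0.72 for TSPAN11. The cause of these moves was not tested. TSPAN7, TSPAN11 and TSPAN19 gave no adjusted value with DESeq2 or with the filter of 1 CPM in 3 libraries, and TSPAN7 gave none without si-SNHG17-1 replicate 2.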

Other observations

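The 8-base word found 3 times in TSPAN6 was counted in all tested genes with a searched 3′ UTR. The word had been picked out from genes lower in these same libraries, so these counts are a description and support nothing. Of 13641 such genes, 388 held at least 1 copy, of which 73 were called lower and 17 higher. That is 18.8% called lower, beside 6.45% of all 13641 genes. Among genes with the 6-base core, which include those with the word, 10.1% were called lower. Among the 10992 genes without the core it was 5.57%. The genes compared were not matched for 3′ UTR length. Of 19 genes with 2 copies, 4 were called lower and none higher. TSPAN6 was 1 of 5 genes with 3 copies and the only one of them that was called. The others, named after their values were seen, were AQR, GUCY1A2, LGALS8 and SLITRK5, with log2 fold changes of −0.23, 1.08, −0.50 and 0.12. Their 3′ UTRs had lengths of 5010, 13537, 4820 and 18007 bases, all longer than that of TSPAN6.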
